A study of Homo sapiens with 8 samples.

Results

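The snoRNA host transcripts are RNAs whose introns carry small nucleolar RNAs (snoRNAs). They were taken as every gene named SNHG followed by a number, with GAS5, ZFAS1, EPB41L4A-AS1 and TAF1D. This gave 26 of the 61497 genes in the 2 expression tables of the series, 1 for each round, which share 45341 genes. Of the 26, 25 were annotated as noncoding and 1, TAF1D, as protein coding. All 26 carried these names in the round 2 table, and 17 did in the round 1 table, where another 8 were found by the same gene identifier under an older name. A transcript was tested if it reached 1 FPKM (fragments per kilobase of transcript, scaled to library depth) in at least 2 of the 8 libraries. Of the members, 22 passed, while SNHG4, SNHG14, SNHG22 and SNHG23 did not enter the test.

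The libraries came from MDA-MB-231, a triple-negative breast cancer cell line with mesenchymal traits. In round 1, at passage 8, cells received 1-SO with UV-A light, 1-SO in the dark, vehicle with UV-A light or vehicle in the dark. In round 2, at passages 32 to 34, the same 4 conditions were set up with 1-S in place of 1-SO. Compounds were given at 10 µM for 24 h, vehicle was 1% DMSO, and the lit plate was irradiated for 30 min while the other was wrapped in foil, with 600000 cells in each well. 1-SO is a dibenzothiophene sulfoxide linked to a triphenylphosphonium group, and 1-S is the corresponding sulfide without the oxygen. Each of the 4 compound conditions had 1 library and each vehicle condition had 2, 1 in each round, so the error of every test came from the vehicle libraries and was assumed to hold for the compound libraries. Light and plate were the same thing here, and compound, round and passage could not be told apart from one another. The time between irradiation and lysis was not given in the sources used here.

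Each library held 15816049 to 22564754 counted reads. The line's markers VIM, CD44, AXL and MSN stood at 28.3 to 329 FPKM, and ESR1, PGR and CDH1 at 0.14 FPKM or less, while ERBB2 (9.78 to 29.2 FPKM) and EPCAM (2.25 to 5.58 FPKM) were detected. The leukocyte and endothelial markers PTPRC, CD3E and VWF stood at 0.116 FPKM or less, and the erythroid marker HBB had no reads.

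As background, a snoRNA is cut out of an intron of its host, and the spliced exons remain as a separate RNA. Box C/D snoRNAs guide ribose methylation of ribosomal RNA, and box H/ACA snoRNAs guide its pseudouridylation. Many noncoding hosts have the start of terminal oligopyrimidine genes, whose messages code for ribosomal proteins and translation factors. Their spliced RNAs are met by ribosomes in the cytoplasm and are degraded by nonsense-mediated decay, so that host transcripts are known to accumulate in cells whose translation is blocked. GAS5 was first described as a transcript that accumulates in growth-arrested cells.

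The RefSeq gene list (GRCh38) placed 161 snoRNA genes inside the spans of the 26 members, on either strand, with at least 1 in each. Of these, 127 were named as box C/D (SNORD), 27 as box H/ACA (SNORA) and 4 as small Cajal body RNAs (SCARNA). SNHG14 held 83 of them. GAS5 held 11, SNHG1 9, TAF1D 8 and SNHG12 4, while EPB41L4A-AS1 and SNHG8 held 1 each. Both classes occurred among the hosts whose levels differed most. The snoRNAs below, in GENCODE release 29 sequence (GRCh38), show what these introns release. For box C/D the C box and D box are in capitals, and for box H/ACA the last ACA of the sequence. That ACA lies 3 bases before the 3′ end in SNORA13 and SNORA24. In SNORA71A it is the end of the sequence itself, and whether it is the ACA box was not tested. ZFAS1 carries a family of 3 related C/D snoRNAs, which share the run CAGATCGAC of 9 bases.
SNORD12: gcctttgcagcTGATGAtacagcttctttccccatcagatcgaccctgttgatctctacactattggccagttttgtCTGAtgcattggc
SNORD12B: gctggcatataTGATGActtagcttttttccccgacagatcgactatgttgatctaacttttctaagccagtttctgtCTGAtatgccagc
SNORD12C: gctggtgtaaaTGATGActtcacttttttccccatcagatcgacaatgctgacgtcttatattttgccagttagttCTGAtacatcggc
SNORD50B, in SNHG5: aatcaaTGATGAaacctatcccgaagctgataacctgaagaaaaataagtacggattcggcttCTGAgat
SNORD30, in SNHG1: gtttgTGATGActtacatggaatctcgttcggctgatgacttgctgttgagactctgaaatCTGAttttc
SNORA13, in EPB41L4A-AS1: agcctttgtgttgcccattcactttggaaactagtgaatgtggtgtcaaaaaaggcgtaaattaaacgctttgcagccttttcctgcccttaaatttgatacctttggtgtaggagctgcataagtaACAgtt
SNORA24, in SNHG8: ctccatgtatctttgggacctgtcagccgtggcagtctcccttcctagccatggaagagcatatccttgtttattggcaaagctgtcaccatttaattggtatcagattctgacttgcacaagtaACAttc
SNORA71A, in SNHG17: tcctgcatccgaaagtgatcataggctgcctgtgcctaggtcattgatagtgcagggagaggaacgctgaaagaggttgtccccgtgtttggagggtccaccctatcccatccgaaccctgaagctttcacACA

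The starts of the host genes were read from the RefSeq promoter table (GRCh38.p14), which held 21 of the 26 members. The letters CTTT were sought within 15 bases on each side of the RefSeq start, on the sense strand, which reads as the RNA does. They occurred in 8 of these 21, namely SNHG4, SNHG5, SNHG8, SNHG12, SNHG16, SNHG19, TAF1D and ZFAS1. The same window held CTTT in 12.5% of all 35116 promoters in the table. On the other strand it was found in 1 member, SNHG21, against 9.8% of all promoters. Windows of 30 bases are shown for 4 hosts that hold the motif, in capitals, and 3 that do not. Of the tested holders, SNHG5, SNHG8, SNHG12, TAF1D and ZFAS1 were called by edgeR in a comparison below, and SNHG16 and SNHG19 were not. Of the tested hosts whose window lacks it, SNHG7, SNHG17, EPB41L4A-AS1 and GAS5 were called. SNHG1, SNHG3, SNHG10, SNHG11, SNHG18, SNHG20 and SNHG21 also lack it and were not called. Whether the motif goes with the calls was not tested. Among the windows shown, that of ZFAS1 lies 464 bases from the gene start used in the round 2 table, and the others lie within 53 bases of it. Some windows not shown lie farther away. The distance is 1110 bases for SNHG12 and 42896 for TAF1D, which hold the motif. It is 76 bases for SNHG11, 163 for GAS5, 1927 for SNHG20 and 154975 for SNHG14, which lack it. The count of 8 thus refers to RefSeq starts, not always to those of the measured gene models.
ZFAS1, chr20:49278627-49278656 (+): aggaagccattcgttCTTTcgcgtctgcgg
SNHG5, chr6:85678719-85678748 (-): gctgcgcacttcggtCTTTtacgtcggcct
SNHG8, chr4:118278747-118278776 (+): aaggcctcggcCTTTcacattcgggaagcg
SNHG16, chr17:76557749-76557778 (+): cgcaggggcggtctcgcgttCTTTtcgagg
SNHG7, chr9:136728170-136728199 (-): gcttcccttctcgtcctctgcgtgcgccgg
SNHG17, chr20:38435314-38435343 (-): ttgtcgtgtggcctcagtccttcgccgtcc
SNHG1, chr11:62855871-62855900 (-): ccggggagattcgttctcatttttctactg

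As a group, the host transcripts made up a larger share of the reads in compound libraries than in vehicle libraries of the same round. They took 0.121% of the reads in 1-SO UV-A cells and 0.0837% in 1-SO dark cells, against 0.0715% in vehicle UV-A cells and 0.0774% in vehicle dark cells of round 1. In round 2 they took 0.0969% in 1-S UV-A cells and 0.0917% in 1-S dark cells, against 0.0601% in vehicle UV-A cells and 0.0538% in vehicle dark cells. The highest library of round 1 was thus the one with both 1-SO and light, whereas in round 2 both 1-S libraries were high with and without light. These are bulk libraries, in which more RNA per cell and more cells that make it cannot be told apart.

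A log2 ratio of 2 libraries of the same round, on TMM-scaled CPM plus 0.5, was used to describe the 22 tested members without the other round. Its median was 0.51 for 1-SO UV-A over vehicle UV-A, 0.13 for 1-SO dark over vehicle dark, 0.51 for 1-S UV-A over vehicle UV-A and 0.56 for 1-S dark over vehicle dark, against medians between -0.01 and 0.00 for all 12696 tested genes. At least 1.5-fold higher were 10 of 22 members in 1-SO UV-A cells (7.77% of all genes), 1 in 1-SO dark cells (1% of all genes), 10 in 1-S UV-A cells (17.9%) and 10 in 1-S dark cells (16.9%). Light alone gave medians of 0.15 in 1-SO cells and 0.06 in 1-S cells, against -0.16 in vehicle cells of round 1 and 0.11 in vehicle cells of round 2. The vehicle medians of the 2 rounds thus had opposite signs for the same treatment. SNHG25, which had no read in round 2, enters these round 2 medians as 0.

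**Figure D1:**
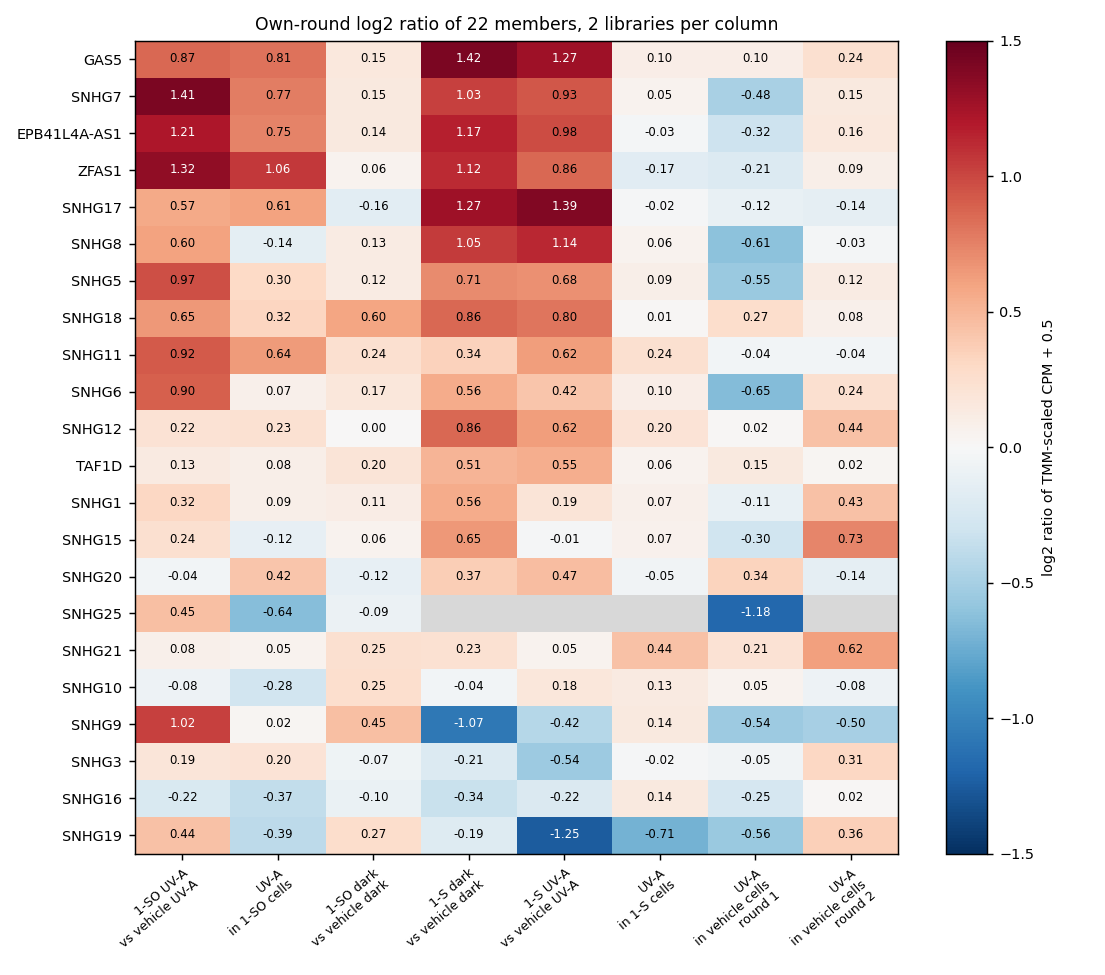
Log2 ratio between 2 libraries of the same round for the 22 tested members (rows), with the ratio printed in each cell and shown in colour from blue (lower) to red (higher); grey marks SNHG25, without reads in round 2. The 1-SO UV-A column and both 1-S against vehicle columns are mostly red, with GAS5 at 0.87, 1.42 and 1.27, and the 1-SO dark column is mostly pale. The columns of light against dark are mixed. Light in 1-SO cells gave 1.06 for ZFAS1, 0.81 for GAS5 and -0.64 for SNHG25. In vehicle cells of round 1 it gave -0.65 for SNHG6, and in those of round 2 0.73 for SNHG15. In 1-S cells most values are pale, with SNHG19 at -0.71.

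With 1-SO and light against vehicle and light, 5 of 22 members rose and 0 fell by edgeR's quasi-likelihood test (Benjamini-Hochberg adjusted p under 0.05), against 4.47% of all genes called higher and 7.04% called lower. ZFAS1, SNHG7, EPB41L4A-AS1, GAS5 and SNHG5 were the 5. ZFAS1 rose 2.42-fold (log2 1.27 ± 0.20, SE) with adjusted p 7.4e-05. SNHG7 rose 2.38-fold (log2 1.25 ± 0.20) with adjusted p 0.00014. These were the 2 largest of the 5 changes, and GAS5 and SNHG5 had the smallest. All calls in this and the following comparisons rest on the model's round term, and a fit without it called 0 members throughout. The share of all genes called without that term is not given here.

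ZFAS1, the antisense RNA of ZNFX1 and host of the SNORD12 family shown above, lies at chr20:49278178-49295738 on the plus strand. Its level was 161 FPKM in 1-SO UV-A cells and 70.7 FPKM in 1-SO dark cells, against 60.8 FPKM in vehicle UV-A cells and 67.0 FPKM in vehicle dark cells. The 1-SO UV-A library stood apart, and the other 3 libraries of round 1 lay close together. In round 2 it was 3.76 FPKM in 1-S UV-A cells and 4.25 FPKM in 1-S dark cells, against 1.89 FPKM in vehicle UV-A cells and 1.78 FPKM in vehicle dark cells, so that both 1-S libraries were above both vehicle libraries. ZFAS1 rose with 1-S by log2 1.03 ± 0.24 with light and 1.11 ± 0.23 in the dark, at edgeR adjusted p of 0.0017 and 0.00064. Round 2 rested on 90 to 208 reads a library and round 1 on 1033 to 3855. The tables of the rounds used other gene models, with exonic lengths of 2243 bases in round 2 and 1075 in round 1, and whether the rounds differed in library type or strand was not given in the sources used here. Levels are therefore compared only within a round.

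GAS5, the growth arrest transcript (chr1:173863900-173868882, minus strand), was among the most abundant members. It stood at 134 FPKM in 1-SO UV-A cells and 70.1 FPKM in 1-SO dark cells, against 69.7 FPKM in vehicle UV-A cells and 62.0 FPKM in vehicle dark cells. In round 2 it stood at 64.3 FPKM in 1-S UV-A cells and 59.7 FPKM in 1-S dark cells, against 25.4 FPKM in vehicle UV-A cells and 21.7 FPKM in vehicle dark cells. In round 1 only the 1-SO UV-A library was high, and in round 2 both 1-S libraries were. GAS5 rose 1.78-fold (log2 0.83 ± 0.18) with 1-SO and light over vehicle and light, at an edgeR adjusted p of 0.0022. It rose 2.61-fold (log2 1.38 ± 0.18) with 1-S in the dark, at an edgeR adjusted p of 1.2e-06, which was the largest change of any member that rose in that comparison. With 1-S and light it rose by log2 1.31 ± 0.17 (edgeR adjusted p 2.7e-06), and DESeq2 called GAS5 in all 3 comparisons.

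**Figure D2:**
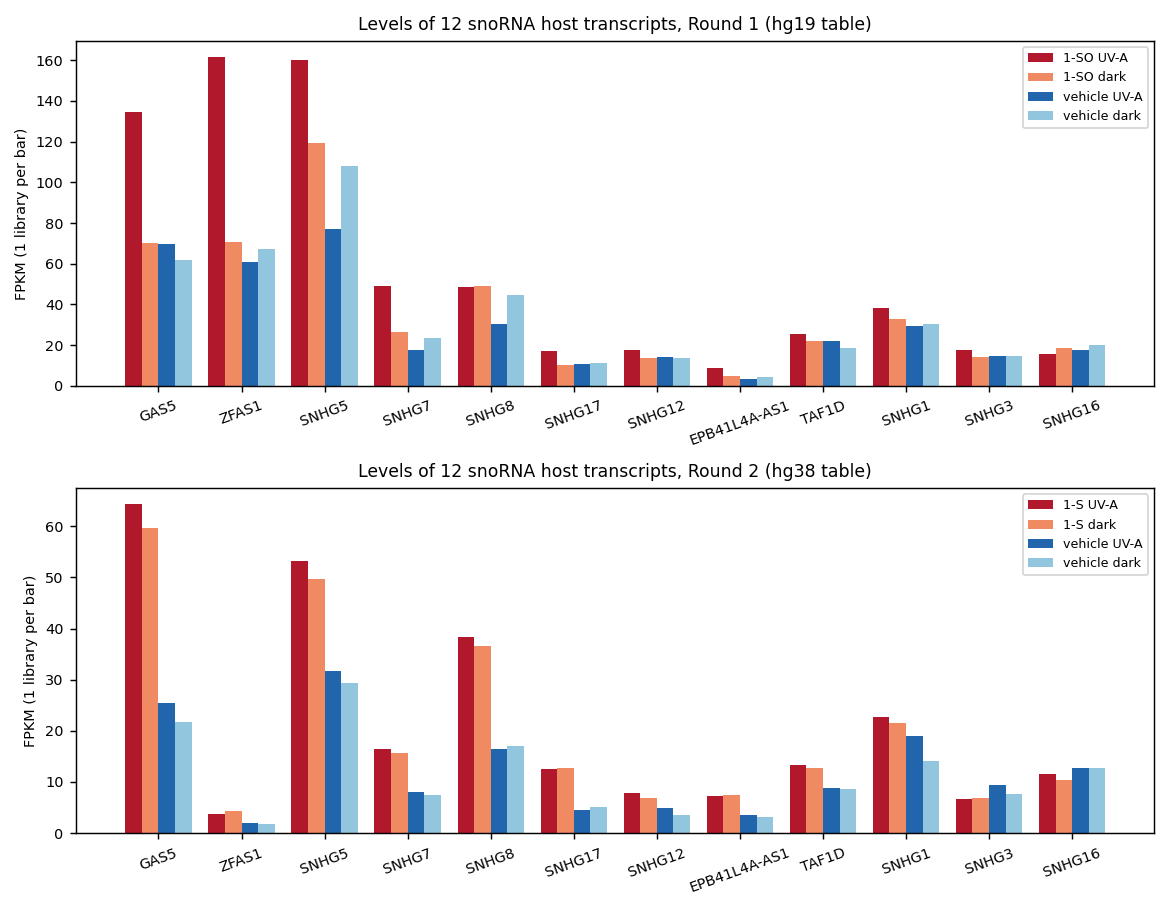
FPKM of 12 members in each library (1 bar per library, no error bar), round 1 above and round 2 below, with separate linear axes because the rounds used different gene models. In round 1 the 1-SO UV-A bar stands alone for GAS5 (134 FPKM) and ZFAS1 (161 FPKM), and in round 2 both 1-S bars stand above both vehicle bars for the first 10 genes but not for SNHG3 and SNHG16.

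SNHG7, host of SNORA17A and SNORA17B (chr9:136721366-136728184), had 49.3 FPKM in 1-SO UV-A cells and 26.3 FPKM in 1-SO dark cells, against 17.4 FPKM in vehicle UV-A cells and 23.4 FPKM in vehicle dark cells. In round 2 it had 16.4 FPKM in 1-S UV-A cells and 15.7 FPKM in 1-S dark cells, against 8.14 FPKM in vehicle UV-A cells and 7.40 FPKM in vehicle dark cells. Vehicle UV-A was the lowest library of round 1, and without it the fitted log2 change with 1-SO and light was 0.79 in place of 1.25. With 1-S it rose by log2 1.10 ± 0.20 with light and 0.87 ± 0.21 in the dark (edgeR adjusted p 0.00016 and 0.0021), and the dark value was 0.40 without the vehicle dark library of round 2.

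EPB41L4A-AS1, host of SNORA13 (chr5:112160526-112164276), had 8.81 FPKM in 1-SO UV-A cells and 4.74 FPKM in 1-SO dark cells, against 3.51 FPKM in vehicle UV-A cells and 4.21 FPKM in vehicle dark cells. Its 1-S UV-A and 1-S dark libraries held 7.34 and 7.43 FPKM, against 3.48 FPKM in vehicle UV-A and 3.14 FPKM in vehicle dark cells. It rose in 3 of the 4 compound against vehicle comparisons, with log2 changes of 1.11 ± 0.27 for 1-SO with light (adjusted p 0.0071), 1.13 ± 0.26 for 1-S with light (adjusted p 0.0021) and 1.08 ± 0.27 for 1-S in the dark (adjusted p 0.0032), all by edgeR. DESeq2 did not call it in any of the 3, and the last value was 0.71 without the vehicle dark library of round 2.

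SNHG5, host of the SNORD50 pair (chr6:85660950-85678736), had 160.0 FPKM in 1-SO UV-A cells and 119 FPKM in 1-SO dark cells, against 77.1 FPKM in vehicle UV-A cells and 108 FPKM in vehicle dark cells. In round 2 it had 53.2 FPKM in 1-S UV-A cells and 49.7 FPKM in 1-S dark cells, against 31.6 FPKM in vehicle UV-A cells and 29.4 FPKM in vehicle dark cells. It rose by a fitted log2 of 0.79 ± 0.20 with 1-SO and light (edgeR adjusted p 0.0084), but the vehicle UV-A library of round 1 was low and without it the value was 0.31. Its log2 change with 1-S in the dark, 0.54 ± 0.20 (edgeR adjusted p 0.039), was 0.04 without the vehicle dark library of round 2, and that with 1-S and light, 0.84 ± 0.19 (edgeR adjusted p 0.0015), was 1.36 without the vehicle UV-A library of round 2. SNHG5 was therefore the called member that leaned most on single vehicle libraries, and DESeq2 called it only with 1-S and light. The call with 1-S in the dark was also lost under relative log expression scaling and without the filter on low values.

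Without light, no member passed the test for 1-SO. Of the 22, 0 were called by edgeR (0% of all genes), 0 had an unadjusted p under 0.05, against 26 of all 12696 genes, and DESeq2 and limma also called 0. Fitted log2 changes ran from -0.29 to 0.82 with a median of 0.25 (all genes -0.004), and 18 of 22 were above 0, against 48.5% of all genes. The 95% interval for GAS5 was -0.17 to 0.56, and for ZFAS1 -0.29 to 0.51, which leaves room for moderate changes in either. Within 1-SO cells, UV-A against dark gave 3 of 22 higher (5.57% of all genes) and 0 lower (9.21% of all genes). These were ZFAS1 (log2 1.07 ± 0.21, adjusted p 0.00071), GAS5 (0.81 ± 0.19, adjusted p 0.0042) and SNHG7 (0.78 ± 0.22, adjusted p 0.015), by edgeR, of which DESeq2 did not call SNHG7.

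The light response itself differed between 1-SO cells and vehicle cells for 2 of 22 members, both more positive in 1-SO cells (1.47% of all genes). ZFAS1 had a difference of log2 1.16 ± 0.26 (edgeR adjusted p 0.0089) and SNHG7 one of 0.95 ± 0.27 (edgeR adjusted p 0.039). DESeq2 called 0 of these 2, and SNHG7 was also not called under relative log expression scaling or by limma on log2(FPKM + 0.1). For GAS5 the difference was 0.64 ± 0.23 (edgeR adjusted p 0.13), and for EPB41L4A-AS1 0.85 ± 0.36 (edgeR adjusted p 0.21). In vehicle cells, light changed 0 of 22 members by edgeR (0% of all genes) and by DESeq2, and 1 member and 348 genes had an unadjusted p under 0.05. That member was SNHG25, named after its value was seen, with 6.82 FPKM in vehicle UV-A cells and 16.8 FPKM in vehicle dark cells of round 1.

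With 1-S in the dark against vehicle in the dark, 9 of 22 members rose (15.9% of all genes) and 1 fell (15% of all genes). With 1-S and light against vehicle and light, 9 rose (13.8% of all genes) and 0 fell (13.7% of all genes). The 9 that rose were the same in both: GAS5, SNHG17, ZFAS1, EPB41L4A-AS1, SNHG8, SNHG7, SNHG12, TAF1D and SNHG5. The 2 comparisons share the model's vehicle libraries and light term, so their calls are not independent. Fitted log2 changes of the 9 ran from 0.54 to 1.38 in the dark and from 0.52 to 1.41 with light. The 9 are 40.9% of the tested members. Within 1-S cells, light against dark gave 0 called members by edgeR (0% of all genes) and by DESeq2, with 0 members and 307 genes at an unadjusted p under 0.05, and the difference of the light response between 1-S and vehicle cells gave 0 as well (0%), with 0 members and 285 genes at an unadjusted p under 0.05.

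SNHG17, which carries the SNORA71 cluster (chr20:38420588-38435353), had 12.6 FPKM in 1-S UV-A cells and 12.7 FPKM in 1-S dark cells, against 4.51 FPKM in vehicle UV-A cells and 5.05 FPKM in vehicle dark cells. In round 1 it had 16.9 FPKM in 1-SO UV-A cells and 10.1 FPKM in 1-SO dark cells, against 10.7 FPKM in vehicle UV-A cells and 11.1 FPKM in vehicle dark cells. It rose with 1-S by log2 1.30 ± 0.22 in the dark and 1.41 ± 0.22 with light, at edgeR adjusted p of 5.1e-05 and 2e-05, and neither value moved by more than 0.03 when a vehicle library was left out. The snoRNA rows inside SNHG17 held 109 reads in 1-S UV-A cells and 122 in 1-S dark cells, against 36 in vehicle UV-A cells and 42 in vehicle dark cells. Libraries were made from poly-T selected RNA, and whether such reads came from the snoRNA or from unspliced host RNA was not tested. Round 2 listed no snoRNA row inside GAS5, so its snoRNAs were not counted. The snoRNA rows inside the other 25 members held 155 reads in 1-S UV-A cells and 179 in 1-S dark cells. This compares with 102 in vehicle UV-A cells and 92 in vehicle dark cells. SNHG17 supplied most of that difference: without its rows there were 46 reads in 1-S UV-A cells and 57 in 1-S dark cells, against 66 in vehicle UV-A cells and 50 in vehicle dark cells.

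SNHG8, host of SNORA24 (chr4:118278709-118279823), had 38.3 FPKM in 1-S UV-A cells and 36.6 FPKM in 1-S dark cells, against 16.4 FPKM in vehicle UV-A cells and 16.9 FPKM in vehicle dark cells. In round 1 it had 48.7 FPKM in 1-SO UV-A cells, 49.3 FPKM in 1-SO dark cells, 30.2 FPKM in vehicle UV-A cells and 44.5 FPKM in vehicle dark cells, so that vehicle UV-A alone was low. SNHG8 rose with 1-S by log2 1.31 ± 0.24 with light and 0.91 ± 0.24 in the dark (edgeR adjusted p 0.00015 and 0.0054), and its dark value, which DESeq2 did not call, was 0.47 without the vehicle dark library of round 2.

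SNHG12, an antisense-annotated host of SNORA44, SNORA61, SNORA16A and SNORD99 (chr1:28578538-28582983), had 7.92 FPKM in 1-S UV-A cells and 6.83 FPKM in 1-S dark cells, against 4.86 FPKM in vehicle UV-A cells and 3.60 FPKM in vehicle dark cells. In round 1 it had 17.6 FPKM in 1-SO UV-A cells and 13.7 FPKM in 1-SO dark cells, against 14.3 FPKM in vehicle UV-A cells and 13.5 FPKM in vehicle dark cells. The rise with 1-S was log2 0.74 ± 0.24 with light and 0.77 ± 0.25 in the dark (edgeR adjusted p 0.022 and 0.019), the dark value was 0.45 without the vehicle dark library of round 2, and DESeq2 called neither.

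TAF1D, the protein-coding member, encodes a subunit of the selectivity factor of RNA polymerase I (chr11:93729948-93784391). It had 13.4 FPKM in 1-S UV-A cells and 12.8 FPKM in 1-S dark cells, against 8.74 FPKM in vehicle UV-A cells and 8.70 FPKM in vehicle dark cells. In round 1 it had 25.3 FPKM in 1-SO UV-A cells and 21.9 FPKM in 1-SO dark cells, against 21.9 FPKM in vehicle UV-A cells and 18.8 FPKM in vehicle dark cells, a narrower range. TAF1D rose with 1-S by log2 0.52 ± 0.18 with light and 0.55 ± 0.18 in the dark (edgeR adjusted p 0.030 and 0.020), the smallest change among the 9 with light, and neither DESeq2 nor edgeR without the filter on low values called it. SNHG1, which holds the SNORD22 and SNORD25 to SNORD31 cluster, had 22.7 FPKM in 1-S UV-A cells and 21.5 FPKM in 1-S dark cells, against 18.9 FPKM in vehicle UV-A cells and 14.2 FPKM in vehicle dark cells. In round 1 it had 38.5 FPKM in 1-SO UV-A cells and 33.1 FPKM in 1-SO dark cells, against 29.3 FPKM in vehicle UV-A cells and 30.2 FPKM in vehicle dark cells. SNHG1 passed the test in no comparison, and its largest fitted log2 change was 0.42 ± 0.20 with 1-S in the dark (edgeR adjusted p 0.11), which was 0.01 without the vehicle dark library of round 2.

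**Figure D3:**
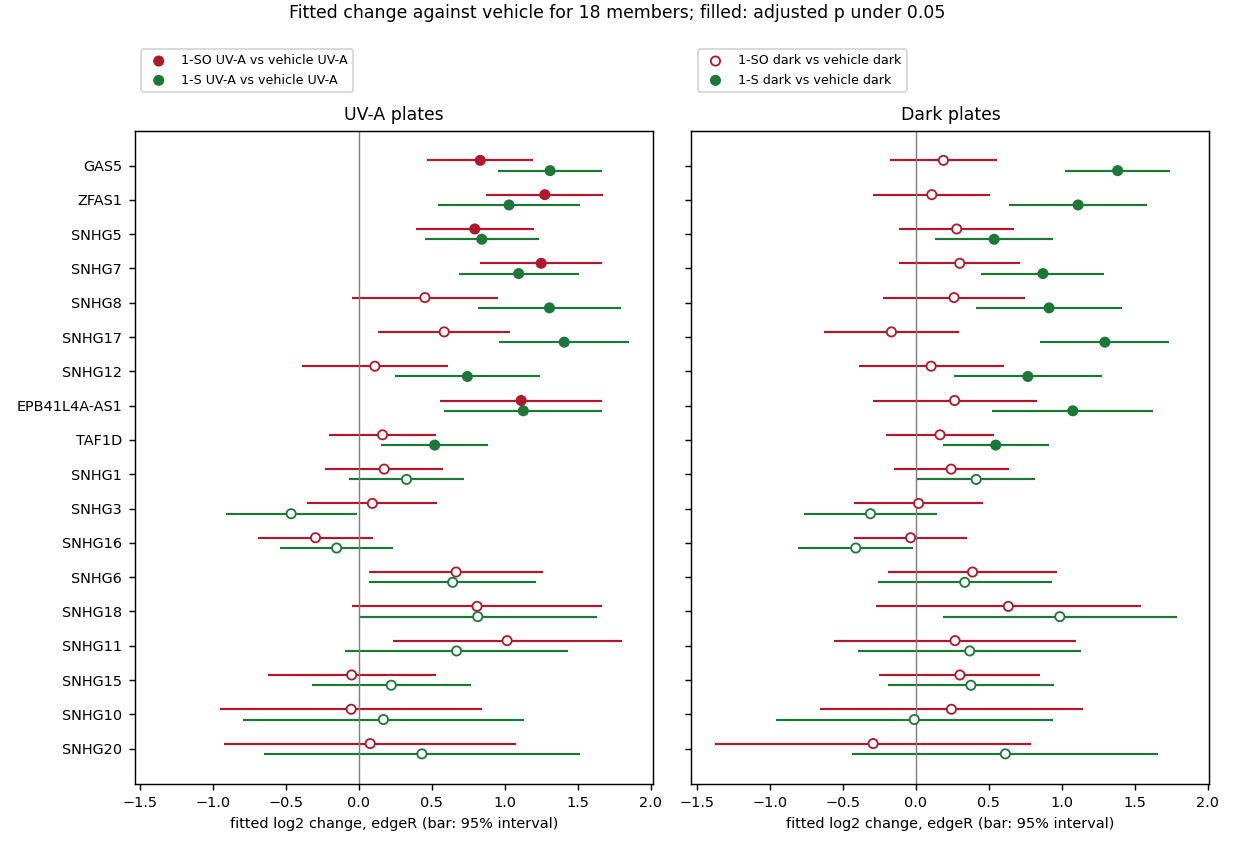
Fitted log2 change against vehicle from the edgeR model (points) with its 95% interval (bars) for 18 members, lit plates on the left and dark plates on the right, 1-SO in red above 1-S in green; filled points have an adjusted p under 0.05. On the dark plates only 1-S points are filled, and on the lit plates 5 red and 9 green points are filled.

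SNHG9, host of SNORA78, was the 1 member called lower than vehicle by the edgeR model, and the call rested on few reads. It had 1 read in 1-S UV-A cells and 0 in 1-S dark cells, against 5 in vehicle UV-A cells and 12 in vehicle dark cells. The edgeR model called it lower in the dark, and DESeq2 did not. Set against 3 reads, the limit that a count of 0 allows in that library, SNHG9 was 3.87-fold lower in 1-S dark cells than in vehicle dark cells. This ratio takes the 12 reads of the vehicle dark library as exact and has 1 library on each side, so it is not a lower bound. In round 1 it had 21 reads in 1-SO UV-A cells and 15 in 1-SO dark cells, against 3 in vehicle UV-A cells and 9 in vehicle dark cells. The direction of its difference from vehicle was thus opposite in the 2 rounds, both at under 25 reads a library.

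Hosts did not move as a block. SNHG16, which carries the SNORD1 family, had 11.5 FPKM in 1-S UV-A cells and 10.3 FPKM in 1-S dark cells, against 12.7 FPKM in both vehicle libraries of round 2. Its fitted log2 changes against vehicle lay between -0.41 and -0.03, with none called. SNHG3, host of the SNORA73 pair, had fitted changes of -0.46 with 1-S and light and -0.31 with 1-S in the dark, and of 0.09 with 1-SO and light and 0.02 with 1-SO in the dark, none called. Its value with 1-S and light was -0.19 without the vehicle UV-A library of round 2, and that with 1-S in the dark -0.58 without the vehicle dark library of round 2. SNHG6, SNHG11, SNHG15, SNHG18, SNHG20, SNHG10, SNHG19, SNHG21 and SNHG25 were also called in no comparison by the edgeR model. SNHG19 had the largest negative value with 1-S and light after SNHG9, a fitted log2 of -1.48 ± 0.60 (edgeR adjusted p 0.067). It had 13 reads in 1-S UV-A cells and 31 in 1-S dark cells, against 48 in vehicle UV-A cells and 37 in vehicle dark cells. It was called lower in that comparison by edgeR without the filter on low values and by both limma settings, and its value was -0.69 without the vehicle UV-A library of round 2. SNHG6 had a fitted change of 0.67 ± 0.29 with 1-SO and light (edgeR adjusted p 0.15), which was 0.01 without the vehicle UV-A library of round 1. SNHG18 had one of 0.99 ± 0.39 with 1-S in the dark (edgeR adjusted p 0.056), and both limma settings called it there. SNHG25 had 30 to 88 reads in round 1 libraries and 0 in every round 2 library, so no change with 1-S is given for it. Among the members outside the test, SNHG4 had 188 reads in 1-S UV-A cells and 242 in 1-S dark cells, against 229 in vehicle UV-A cells and 270 in vehicle dark cells, and SNHG14 and SNHG22 had at most 7 reads in any library. SNHG23 had none.

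The compounds were compared at the same dose and time as differences of their changes from vehicle, dark against dark and lit against lit, with p-values adjusted over all genes in each. In the dark, 3 of 22 members were lower with 1-SO than with 1-S (8.78% of all genes). These were SNHG17 (log2 -1.46 ± 0.29, edgeR adjusted p 0.00091), GAS5 (-1.19 ± 0.23, edgeR adjusted p 0.00077) and ZFAS1 (-1.0 ± 0.28, edgeR adjusted p 0.015). SNHG9 was called higher (8.4% of all genes), against a 1-S library without a read. Under DESeq2 SNHG17 and GAS5 were called, and ZFAS1 and SNHG9 were not, and SNHG9 was also not called without the filter on low values.

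With light, 0 of 22 members differed between 1-SO and 1-S by edgeR (3.55% of all genes) and by DESeq2, with 5 members at an unadjusted p under 0.05 against 1906 of all genes, while limma on log2(FPKM + 1) called 2, SNHG9 and SNHG19. The intervals remained wide. For ZFAS1 the difference was 0.24 with a 95% interval of -0.34 to 0.83, for SNHG7 0.15 (-0.39 to 0.70), for EPB41L4A-AS1 -0.01 (-0.73 to 0.71) and for GAS5 -0.48 (-0.96 to -0.001). For SNHG17 it was -0.82 (-1.41 to -0.23) at an edgeR adjusted p of 0.13, and for SNHG8 -0.85 (-1.50 to -0.20) at an edgeR adjusted p of 0.16. By edgeR, the sulfoxide and the sulfide therefore differed in the dark for 3 hosts besides SNHG9, and with light no such difference was detected. The error of this test does not hold the full spread between vehicle libraries, because the round term takes out their difference in level. Without that term 0 members were called in the dark. Since 1-SO was tested in round 1 and 1-S in round 2, structure and round cannot be told apart in these differences.

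The genes around the hosts' biology were followed as lists. Of 18 nonsense-mediated decay factors, 8 rose (15.9% of all genes) and 0 fell (15% of all genes) with 1-S in the dark, and 7 rose (13.8% of all genes) and 0 fell (13.7% of all genes) with 1-S and light. UPF2, a core factor of this decay, rose by log2 1.06 ± 0.18 with 1-S in the dark (edgeR adjusted p 7.2e-05), with 17.9 FPKM in 1-S dark cells against 8.38 FPKM in vehicle dark cells. SMG8, a partner of the decay kinase SMG1, rose by 0.73 ± 0.20 in the same comparison (edgeR adjusted p 0.0066). With 1-SO and light 2 rose (4.47% of all genes) and 0 fell (7.04% of all genes), the decapping enzyme DCP2 (log2 0.75 ± 0.17) and SMG1 (0.57 ± 0.18), at edgeR adjusted p of 0.0050 and 0.038. With 1-SO in the dark 0 of 18 were called. Between light and dark in 1-SO cells 4 of 18 rose (5.57% of all genes) and 0 fell (9.21% of all genes). The list's median fitted log2 change was 0.36 with 1-S in the dark, 0.23 with 1-S and light, 0.16 with 1-SO and light and close to 0 with 1-SO in the dark, against medians of all genes between -0.004 and 0.009.

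Protein-coding genes that host snoRNAs, among them ribosomal protein and translation factor genes, formed another list. NOP56 and DKC1 belong both to this list and to the core proteins below, so the fall of DKC1 with 1-S in the dark counts in both. Of 36 such genes, 1 rose and 4 fell with 1-S in the dark (15.9% and 15% of all genes), 3 rose and 3 fell with 1-S and light (13.8% and 13.7% of all genes), and 0 were called with 1-SO and light or 1-SO in the dark. The shares with 1-S were below those of all genes. HSPA9, the mitochondrial Hsp70 chaperone, rose by log2 0.89 ± 0.21 with 1-S in the dark, and the splicing factor subunit SF3B3 fell by 1.03 ± 0.19 (edgeR adjusted p 0.0026 and 0.000185). Their median fitted log2 change with 1-S in the dark was -0.15, against 0.54 for the members other than SNHG9 and SNHG25. Over all 22 tested members it was 0.48. HSPA8, another of these hosts, rose by 0.89 ± 0.27 with 1-S and light and fell by 0.89 ± 0.30 with light in 1-SO cells (edgeR adjusted p 0.016 and 0.048). With light in 1-SO cells 0 of the 36 rose and 1 fell (5.57% and 9.21% of all genes).

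The proteins that bind snoRNAs were followed in 2 lists of 8. Of 8 core proteins of the particles, 0 rose and 2 fell with 1-S in the dark (15.9% and 15% of all genes), namely NHP2 (log2 -0.63 ± 0.23, edgeR adjusted p 0.041) and the pseudouridine synthase DKC1 (-0.57 ± 0.19, edgeR adjusted p 0.025). With 1-S and light only NOP10 was called, as higher (13.8% of all genes; 0.64 ± 0.20, edgeR adjusted p 0.016), and 0 were called with 1-SO and light. With light in 1-SO cells 0 of the 8 rose and 2 fell (5.57% and 9.21% of all genes). These were NHP2 (-0.83 ± 0.24) and the methyltransferase FBL (-0.72 ± 0.22), at edgeR adjusted p of 0.020 and 0.028. Of 8 assembly factors, 0 rose and 2 fell with 1-S in the dark (15% of all genes). The same 2, the ATPase RUVBL1 and the box C/D factor ZNHIT6, fell with 1-S and light (13.7% of all genes). In 1-SO cells 1 assembly factor fell with light (9.21% of all genes), RUVBL2 (-0.64 ± 0.20, edgeR adjusted p 0.028). Of 8 genes that work with TAF1D in RNA polymerase I transcription, UBTF fell with 1-SO and light (7.04% of all genes; -0.59 ± 0.18, edgeR adjusted p 0.032), POLR1A fell with 1-S and light (13.7% of all genes; -0.64 ± 0.18, edgeR adjusted p 0.0098), and 0 were called with 1-S in the dark. In 1-SO cells 1 of the 8 polymerase I genes fell with light (9.21% of all genes). These lists of 8 genes were not tested against the shares of all genes.

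**Figure D4:**
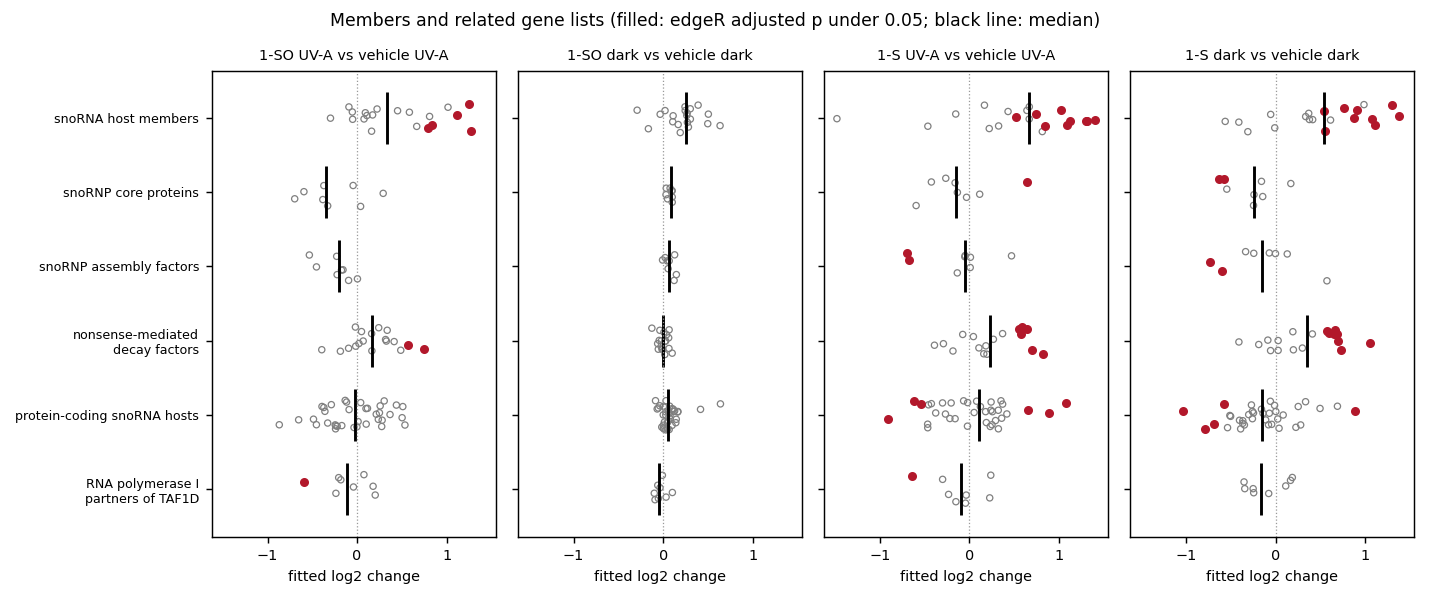
Fitted log2 change against vehicle for each gene (points; vertical scatter has no meaning) of the snoRNA host members without SNHG9 and SNHG25 and of 5 related lists, 1 panel per compound comparison; filled red points have an edgeR adjusted p under 0.05 and black lines are medians. The members' median is 0.67 with 1-S and light, 0.54 with 1-S in the dark, 0.34 with 1-SO and light and 0.25 with 1-SO in the dark, where no point is filled. With SNHG9 and SNHG25 included, the medians of the 22 members are 0.67, 0.48, 0.50 and 0.25 in the same order.

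The authors' deposited tables of 7 of these comparisons, which compared single libraries, called 0 members. The share of all genes that they called is not given here, so this 0 is not read as a result about the members. The smallest adjusted p for a member in the authors' deposited table was 0.0794 for 1-S UV-A against vehicle UV-A (SNHG17) and 0.0796 for 1-S dark against vehicle dark (SNHG9 and GAS5). It was 0.237 for 1-SO UV-A against vehicle UV-A.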

How the data were processed

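Total RNA was poly-T selected. The labels name both NEB and strand-specific libraries; which round used which, and whether counting used strand, was not given in the sources used here, so antisense-annotated hosts such as ZFAS1, SNHG7, SNHG10 and SNHG12 cannot be separated from overlapping genes. The authors deposited whole read counts per gene and FPKM for each round, on hg19 in round 1 and hg38 in round 2. Tools listed in the submitters' processing notes include TopHat, STAR 2.5 and HTSeq 0.6.1, with edgeR 3.16.5 and DESeq2. The deposited comparison tables give log2 fold changes and p-values. No column of another sample was present.

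Genes listed in both rounds with at least 1 FPKM in 2 of 8 libraries (12696) were fitted together with edgeR 4.0.16 (R 4.3.3) on the counts: TMM scaling inside a round, and a model with the round, the vehicle light response and 1 term per compound condition, quasi-likelihood F tests, Benjamini-Hochberg adjustment over all genes, called under 0.05. This left 1 residual degree of freedom, with 26 prior degrees from all genes and a biological coefficient of variation of 12.0%. Standard errors are the log2 change over the square root of F. Replicates are vehicle libraries of different rounds; the labels' round number marks a shared batch and pairs them. The model was tested on simulated data. Total reads of 15816049 to 22564754 limit members with few reads, and floors of 3 reads cover counting error only.

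Shown in full were GAS5, ZFAS1, EPB41L4A-AS1, TAF1D, SNHG1 and members called in a compound comparison (up to 15), and from each list up to 4 called genes with the largest changes. The members and lists were chosen with earlier results of these data known. Alternatives were other scaling, DESeq2 1.42.0, limma 3.58.1 on log2(FPKM + 1) and log2(FPKM + 0.1), no filter, no round term and leaving out each vehicle library. Figures used matplotlib.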

Additional observations from a re-analysis of the deposited data

Results flagged for a closer look

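The response to light was more positive in 1-SO cells than in vehicle cells for 2 members by edgeR's test of the difference itself. For ZFAS1 the difference was log2 1.16 (adjusted p 0.0089), with 161 FPKM in 1-SO UV-A cells and 70.7 FPKM in 1-SO dark cells, against 60.8 FPKM in vehicle UV-A cells and 67.0 FPKM in vehicle dark cells of round 1. For SNHG7 it was log2 0.95 (adjusted p 0.039), and between 0.62 (without the vehicle dark library of round 1) and 1.27 (without the vehicle UV-A library of round 2) when a vehicle library was left out. DESeq2 called neither, and SNHG7 was also not called under relative log expression scaling or by limma on log2(FPKM + 0.1). The 1-SO arm had 1 library in each light condition, and light and plate cannot be told apart.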

How the results depend on the processing

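Counts of called members, out of 22, changed by over 1.5 times as follows. For 1-SO UV-A against vehicle UV-A the count of 5 became 3 under DESeq2 and 8 under limma on log2(FPKM + 1). For UV-A in 1-SO cells the count of 3 became 5 under limma on log2(FPKM + 1). For 1-S dark the count of 10 became 4 under DESeq2. For the difference in light response with 1-SO the count of 2 became 1 under relative log expression scaling, 0 under DESeq2 and 1 under limma on log2(FPKM + 0.1), SNHG7 being lost each time. For 1-SO against 1-S in the dark the count of 4 became 2 under DESeq2, and with light the count of 0 became 2 under both limma settings. The share of all genes called under each alternative is not given here. These counts therefore cannot tell a change in the members from a change in calls over all genes. The cause was not tested. Without the round term, that is without the block that pairs the vehicle libraries, all 6 comparisons with calls had 0, and the coefficient of variation was 35.2%. In that fit ZFAS1 reversed, to -2.06 with 1-S in the dark, -2.05 with 1-S and light and 3.04 for 1-SO against 1-S in the dark; its read counts differed several-fold between rounds. Leaving out each vehicle library gave median log2 changes of 0.17 to 0.56 for 1-SO UV-A (lowest without vehicle UV-A of round 1), 0.15 to 0.15 for UV-A in 1-SO cells, 0.14 to 0.56 for 1-SO dark (highest without vehicle dark of round 1), 0.24 to 0.62 for 1-S dark (lowest without vehicle dark of round 2), 0.57 to 1.05 for 1-S UV-A (highest without vehicle UV-A of round 2) and 0.06 to 0.06 for UV-A in 1-S cells. These fits had no residual degree of freedom, so counts of calls were not run for them. All other alternatives kept each median within 0.19, the SD of the vehicle light medians between rounds.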
